A study of Mus musculus with 8 samples.

Results

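Malat1, Neat1 and Gm26917 are annotated as long noncoding RNAs (lncRNAs), 3 of the 54658 gene symbols counted by RNA-Seq in primary murine articular chondrocytes. Their rows were taken by symbol. Gm26917 was chosen by its measured share of the counts, so its level and rank are described here without a test. Femoral heads of wild-type mice, 3 weeks old, gave the cells, which were cultured with 1 ng/mL of the cytokine IL-1β or with vehicle during 24 h, in 4 samples per treatment. Whether the samples of one treatment came from separate mice or cultures is not given in the sources used here. The spread between these samples, on which the p-values rest in part, may therefore be technical.

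Malat1 is a nuclear RNA that gathers in nuclear speckles, the bodies in which splicing factors are concentrated. Neat1 is transcribed from the neighbouring gene and is the scaffold of paraspeckles, the bodies that assemble around its long form. The 3′ end of Malat1, and of the long form of Neat1, is made by RNase P, which cuts before a tRNA-like fold, and the end is then protected by a triple helix between U-rich tracts and an A-rich tract in place of a poly(A) tail. Gm26917 has no function that can be named here, but it lies beside a copy of the 18S ribosomal RNA, and in the ribosomal DNA repeat the bases before 18S belong to the external transcribed spacer of the precursor that RNA polymerase I makes. Whether its reads come from such a precursor or from a separate RNA was not tested. It is called an lncRNA here by its annotation only.

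Total counts were 10992355 to 17104351 per sample with IL-1β and 13970959 to 17456063 with vehicle. All 12 chondrocyte markers examined averaged above 1 CPM (counts scaled to a common library total), and their summed level was 17100 to 17697 CPM in vehicle-treated and 6195 to 6723 CPM in IL-1β-treated samples. Macrophage markers summed to 29.9 to 33.5 CPM after IL-1β and 14.8 to 16.8 CPM after vehicle, with 3 of 7 above 1 CPM. Osteoblast markers summed to 91.6 to 107 CPM and 191 to 198 CPM, respectively, with 5 of 6 above 1 CPM, and fibroblast markers to 116 to 134 CPM over all samples, with 2 of 5 above 1 CPM. Endothelial, red cell, adipocyte and skeletal muscle markers each summed to under 2 CPM in every sample, and Hbb-bt, Myh1 and Myl1 had no count. The part of these cell types in the results that follow was not tested. In bulk RNA, fewer cells of a type and less RNA per cell cannot be told apart.

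In the GENCODE annotation of mouse build GRCm38 (mm10), each of the 3 genes is of the lincRNA class and exonic over its whole length. Gm26917 (ENSMUSG00000097971.3) covers 3329 bases on the plus strand, chr17:39843013-39846341. Malat1 (ENSMUSG00000092341.3) covers 6983 bases on the minus strand, chr19:5795690-5802672. Neat1 (ENSMUSG00000092274.3) covers 20771 bases on the same strand, chr19:5824708-5845478, and its nearer end is 22036 bases from Malat1.

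The ends of the 3 genes are shown because they place Gm26917 beside ribosomal RNA and set Malat1 and Neat1 side by side. The first pair is the last 30 bases of Gm26917 and the first 30 bases of the 18S unit on the same strand, at chr17:39846312-39846341 and chr17:39846353-39846382, with the 18S unit in capitals. The second pair is the A-rich tract of Malat1 and of Neat1 with the bases before it, at chr19:5795982-5796011 and chr19:5824708-5824737, minus strand, with the tract in capitals. The third pair is the last 30 bases of Gm27702, a small RNA gene that follows Neat1, and its counterpart in Malat1, at chr19:5824652-5824681 and chr19:5795925-5795954, minus strand, with identical aligned bases in capitals. All are written 5′ to 3′ as DNA, from the GENCODE transcripts.
Gm26917 end: ctggtcctgtcccacccccgacggcttcgc
18S unit start: TACCTGGTTGATCCTGCCAGTAGCATATGC
Malat1 A-rich tract: ttccctagctttAAAAAAAAAAAAGCAAAA
Neat1 A-rich tract: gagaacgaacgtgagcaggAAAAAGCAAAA
Gm27702 end: tCgGGcCaGGGTTCgAGTCCCTGCaGTacC
Malat1 counterpart: cCaGGaCgGGGTTCaAGTCCCTGCgGTgtC

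Gm26917 ends 11 bases before the 18S unit, which covers 1849 bases, chr17:39846353-39848201, and is annotated on the opposite strand as part of the rRNA gene CT010467.1. Neat1 ends exactly at its A-rich tract, and the 56-base Gm27702 begins at the next base. The annotated Malat1 transcript runs 292 bases past its own tract, and the bases right after the tract matched Gm27702 at 40 of 56 aligned positions (71.4%). The letters AAAAAGCAAAA, searched on the transcribed strand only, stood in 618 of 141767 annotated transcripts (0.436%), and 9 transcripts ended in them. A match of letters is a description of the sequence and not of its processing in these cells.

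Gm26917 held the most counts of any gene in each of the 8 samples. Its share of all counts was 14.1, 13.8, 14.6 and 14.5% in IL-1β replicates 1 to 4, and 13.2, 13.9, 13.3 and 13.2% in vehicle replicates 1 to 4. The 95% Wilson intervals of these shares were at most 0.0206 percentage points to each side, which covers the error of counting alone, as the reads carried no stated molecular identifiers. Vehicle replicate 2 lay above IL-1β replicate 2, so the groups overlapped. The next gene by share was Fn1, which encodes fibronectin, with a mean of 3.31%, followed by Rn7sk, the small nuclear RNA of the 7SK complex, with 0.896%.

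Malat1 ranked 4 by mean share. Its share was 0.888, 0.803, 0.722 and 0.738% in IL-1β replicates 1 to 4, and 1.00, 0.964, 0.970 and 0.953% in vehicle replicates 1 to 4. All 4 IL-1β-treated samples lay below the lowest vehicle-treated sample. Just behind Malat1 by mean share were Col2a1, the main collagen of cartilage, with 0.702% and Fth1, the ferritin heavy chain, with 0.675%.

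Neat1 ranked 58 by mean share. Its share was 0.122, 0.113, 0.100 and 0.104% in IL-1β replicates 1 to 4, and 0.122, 0.109, 0.115 and 0.115% in vehicle replicates 1 to 4. IL-1β replicate 1 was nearly as high as the highest vehicle-treated sample, and IL-1β replicates 3 and 4 were the lowest of all 8. The Wilson intervals were at most 0.00555 percentage points to each side for Malat1 and 0.00206 for Neat1. They were narrower than the range of each group, but samples close to each other, such as vehicle replicates 3 and 4 for Neat1, had overlapping intervals.

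**Figure D1:**
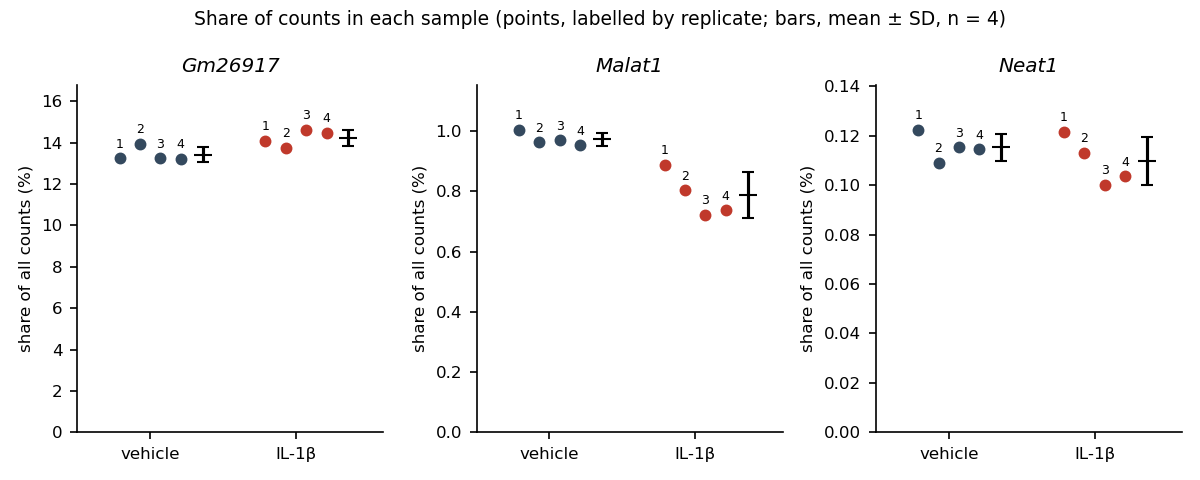
Share of all counts (%, linear axes from 0) held by Gm26917, Malat1 and Neat1 in each sample, with vehicle in dark blue and IL-1β in red, points labelled by replicate number and bars showing the mean ± SD (n = 4). The 4 IL-1β-treated samples lie at 0.722 to 0.888% for Malat1, all below the vehicle-treated samples, while the groups overlap for Gm26917 and Neat1.

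Per kilobase of the listed length, the scale on which genes can be set side by side, the order of the 3 RNAs was the same but the distances were wider. The mean level was 42821 CPM per kb with IL-1β and 40249 with vehicle for Gm26917, 1129 and 1391 for Malat1, and 52.8 and 55.4 for Neat1. Gm26917 ranked first of all genes on this scale as well, Malat1 24 and Neat1 700. The ranges of the 3 RNAs were far apart in every sample. The counts do not tell the short form of Neat1 from the long one, so the level per kb of either form was not measured. The 3 RNAs together held 94.3 to 95.4% of all counts of genes of lncRNA biotypes, depending on the sample. Most of this was Gm26917, which was chosen by its share. Genes of lncRNA biotypes held 15.1 to 16.2% of all counts, and Gm26917 alone held 13.2 to 14.6%. The lncRNA genes other than the 3 held 0.743 to 0.858%.

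Counts were normalized by the trimmed mean of M-values (TMM), and edgeR's quasi-likelihood test was run over the 14404 genes that exceeded 1 CPM in 4 or more samples. For each gene, edgeR pools the spread between its samples with that of other genes (prior degrees of freedom 20.9). Its SEs, intervals and p-values are therefore not those of the gene's own 4 samples per group alone. Genes with a Benjamini-Hochberg adjusted p under 0.05 are called changed, and a differentially expressed gene (DEG) also passed 1 in absolute log2 fold change. Of the 14404 genes, 5796 changed (40.2%), 2944 of them higher (20.4%) and 2852 lower (19.8%) with IL-1β, and 751 were DEGs (5.21%), with 412 higher (2.86%) and 339 lower (2.35%). The groups did not overlap for 5305 genes (36.8%). The median log2 fold change of all genes tested was -0.0012. By these rules 2 of the 3 lncRNAs changed, 1 in each direction, and none was a DEG, so a change was common among all genes and small in the lncRNAs.

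Malat1 fell in IL-1β-treated cells. Its TMM-normalized level was 8793, 7959, 7337 and 7436 CPM in IL-1β replicates 1 to 4 against 9935, 9717, 9662 and 9531 CPM in vehicle replicates 1 to 4. The groups did not overlap, and the spread was wider with IL-1β (7881 ± 667 CPM, SD, n = 4) than with vehicle (9711 ± 168 CPM, n = 4). The log2 fold change was -0.30 (SE 0.034, edgeR's adjusted p = 2.71e-08), and its 95% interval reached from -22.7% to -14.8% of the vehicle level. IL-1β replicate 1 was the sample nearest to the vehicle-treated ones, and the log2 fold change was -0.36 without it.

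Gm26917 rose slightly. Its level was 139524, 136416, 148466 and 145802 CPM in IL-1β replicates 1 to 4 against 131127, 140661, 132012 and 132153 CPM in vehicle replicates 1 to 4. Vehicle replicates 1, 3 and 4 lay in a narrow band below all IL-1β-treated samples, and vehicle replicate 2 lay among the latter. The means were 142552 ± 5548 and 133988 ± 4472 CPM (SD, n = 4 each), a log2 fold change of 0.09 (SE 0.02, edgeR's adjusted p = 0.00057) with a 95% interval of 3.42 to 9.45%. Because Gm26917 supplies so large a part of the total, the test was repeated on total library sizes in place of TMM, with and without the ribosomal locus in the total. The log2 fold change was 0.09 with it (adjusted p = 2.62e-05) and 0.10 without it (adjusted p = 2.34e-05). The adjusted p was larger with DESeq2 in place of edgeR (log2 fold change 0.09, SE 0.031, DESeq2's adjusted p = 0.0149). It was also larger without vehicle replicate 4 (0.08, edgeR's adjusted p = 0.0115).

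Neat1 did not pass the test. Its level was 1204, 1120, 1018 and 1045 CPM in IL-1β replicates 1 to 4 against 1211, 1100, 1150 and 1146 CPM in vehicle replicates 1 to 4. The means were 1097 ± 83.5 and 1152 ± 45.5 CPM (SD, n = 4 each), and the groups overlapped. The log2 fold change was -0.07 (SE 0.039, edgeR's adjusted p = 0.16), and its 95% interval was -9.93 to 0.658%, which does not reach the -18.8% between the means of Malat1. This call depended on 1 sample: without IL-1β replicate 1 the log2 fold change was -0.12 and passed the test (adjusted p = 0.00883).

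**Figure D2:**
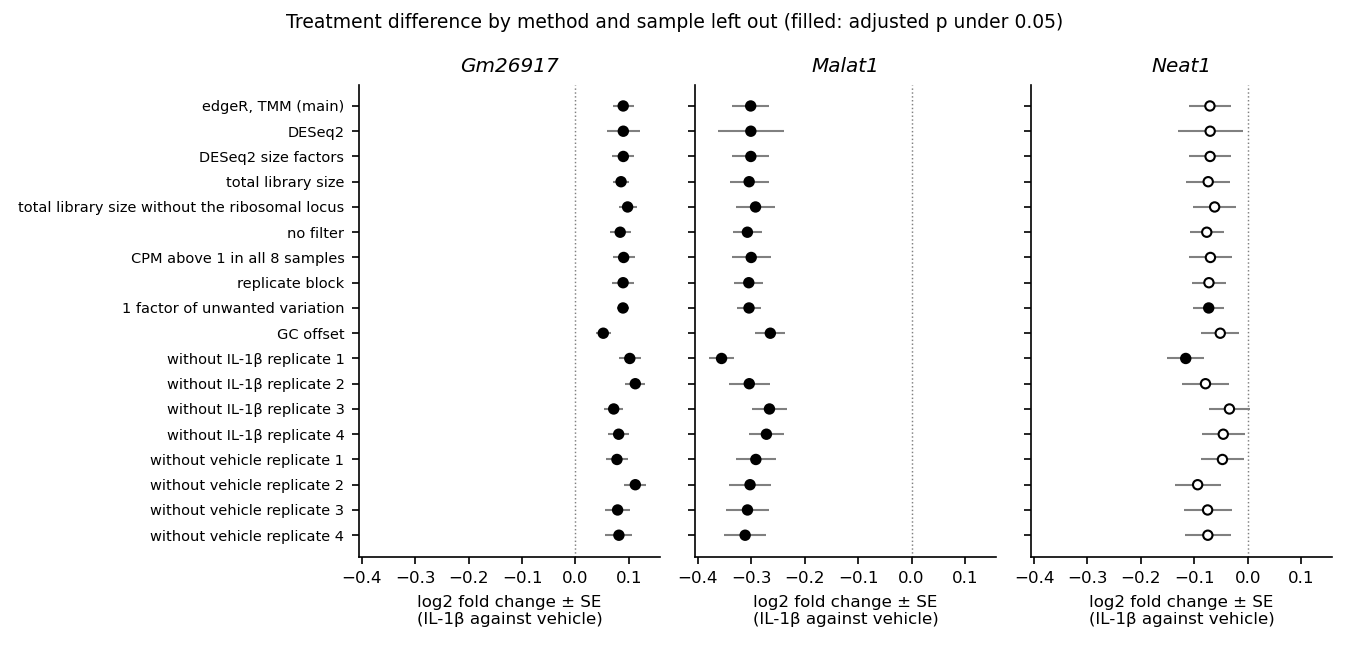
Log2 fold change of IL-1β against vehicle with its SE (x axis, the same range in each panel) for the 3 lncRNAs under the main analysis, 9 other methods and each of 8 samples left out (y axis), with filled points for an adjusted p under 0.05. Malat1 stays between -0.36 and -0.26 and Gm26917 between 0.05 and 0.11 throughout, while Neat1 is filled only with 1 factor of unwanted variation and without IL-1β replicate 1.

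The ratio of Malat1 to Neat1 counts within a sample does not depend on the scaling between samples. It was 7.30, 7.10, 7.21 and 7.11 in IL-1β replicates 1 to 4 and 8.21, 8.83, 8.40 and 8.32 in vehicle replicates 1 to 4. All IL-1β-treated samples had a lower ratio than all vehicle-treated ones, and the spread with IL-1β was narrow (7.18 ± 0.093 against 8.44 ± 0.275, SD, n = 4 each). Divided by the full listed lengths, Malat1 had 21.1 to 21.7 times the counts per base of Neat1 with IL-1β and 24.4 to 26.3 times with vehicle. The short form of Neat1 is not told apart in these counts, so these are not ratios of molecules. The ratio of Gm26917 to Malat1 counts was 15.9 to 20.2 with IL-1β and 13.2 to 14.5 with vehicle.

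The rRNA gene beside Gm26917, CT010467.1, varied far more than Gm26917 did. It is annotated on the strand opposite to the 18S sequence shown above, and the strand setting of the counting is not given. Whether its counts are reads of 18S was not tested. CT010467.1 had 1310, 2089, 3077 and 4840 counts in IL-1β replicates 1 to 4 and 4087, 4246, 14494 and 43050 counts in vehicle replicates 1 to 4. Vehicle replicates 3 and 4 stood high, and the other 6 samples overlapped. For every count of CT010467.1 there were 425 to 1182 counts of Gm26917 with IL-1β and 46.7 to 573 with vehicle. Other annotated genes, Gm42418 and AY036118, overlap CT010467.1. Reads from the overlapped part may be missing from its counts, so the size of this ratio is uncertain. The log2 fold change of CT010467.1 was -2.44 (SE 0.463, edgeR's adjusted p = 8.26e-05), or -1.33 without vehicle replicate 4 (adjusted p = 0.00095). The mitochondrial ribosomal RNAs mt-Rnr1 and mt-Rnr2 were also highest in vehicle replicate 4, at 581 and 617 counts. In that sample Gm26917 was at 132153 CPM, beside 131127 and 132012 CPM in vehicle replicates 1 and 3.

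No exon of another annotated gene overlaps Gm26917. Gm42418 and AY036118, a pair of lincRNA genes that overlap CT010467.1, had no count in any sample. Featurewise counting by default leaves out a read that overlaps more than 1 gene, and the setting used is not given in the sources used here. Malat1 shares 539 of its bases (7.72%) and Neat1 384 (1.85%) with small genes inside them, among them Gm27694, Gm37376, Gm27533, Gm27505 and Gm28006, and these had no count either. Gm27702, the small RNA after Neat1, had 1 to 5 counts per sample.

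**Figure D3:**
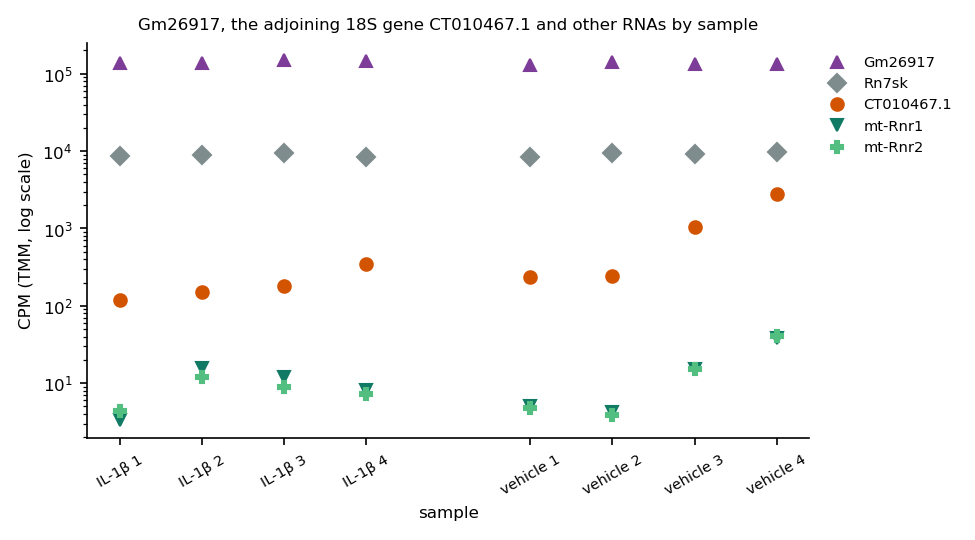
TMM-normalized CPM (log scale) of Gm26917, Rn7sk, CT010467.1, mt-Rnr1 and mt-Rnr2 in the 4 IL-1β-treated and 4 vehicle-treated samples (x axis). CT010467.1 spans 118 to 2829 CPM and is highest in vehicle replicates 3 and 4, while Gm26917 stays between 131127 and 148466 CPM.

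Within the IL-1β-treated group, Malat1 and Neat1 deviated in the same direction in each of the 4 samples and Gm26917 in the opposite one. On the log2(CPM + 1) scale, IL-1β replicate 1 lay above the group mean by 0.16 for Malat1 and 0.14 for Neat1, and IL-1β replicate 3 deviated by -0.10 for each. For Gm26917, IL-1β replicate 3 lay 0.06 above its group mean and IL-1β replicate 1 deviated by -0.03. The vehicle-treated samples showed no such pattern throughout. In vehicle replicates 3 and 4 all 3 RNAs lay below their group means, and in vehicle replicate 2 the deviations were 0.07 for Gm26917, 0.001 for Malat1 and -0.07 for Neat1. Over the 8 samples, Pearson's r of the deviations was 0.92 for Malat1 and Neat1 (Spearman's rho 0.93, r 0.74 without the 2 samples farthest from the median), -0.55 for Gm26917 and Malat1 (rho -0.67, r -0.54) and -0.79 for Gm26917 and Neat1 (rho -0.83, r -0.62). These are descriptions of the same 8 libraries.

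Base composition moved with these deviations. Gm26917 was 69.1% G or C, above all but 0.0297% of the 6739 genes with a mean of at least 20 CPM, while Malat1 was 42.5%, Neat1 47.3% and the median gene 49.6%. In IL-1β replicate 1 the median deviation ran from 0.03 in the lowest of 10 equal classes of genes by GC to -0.04 in the highest, and in IL-1β replicate 3 from -0.04 to 0.05. IL-1β replicate 2 followed replicate 1, and replicate 4 followed replicate 3. In the vehicle-treated samples these medians stayed within 0.016 of 0. In an alternative chosen after seeing the data, a median deviation by GC was removed from each sample. This deviation was taken from the mean over both treatments and not from the group mean. A GC trend that differed between the treatments was therefore removed as well. The log2 fold change was then -0.26 for Malat1 (edgeR's adjusted p = 3.83e-09), 0.05 for Gm26917 (adjusted p = 0.0032) and -0.05 for Neat1 (adjusted p = 0.275).

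**Figure D4:**
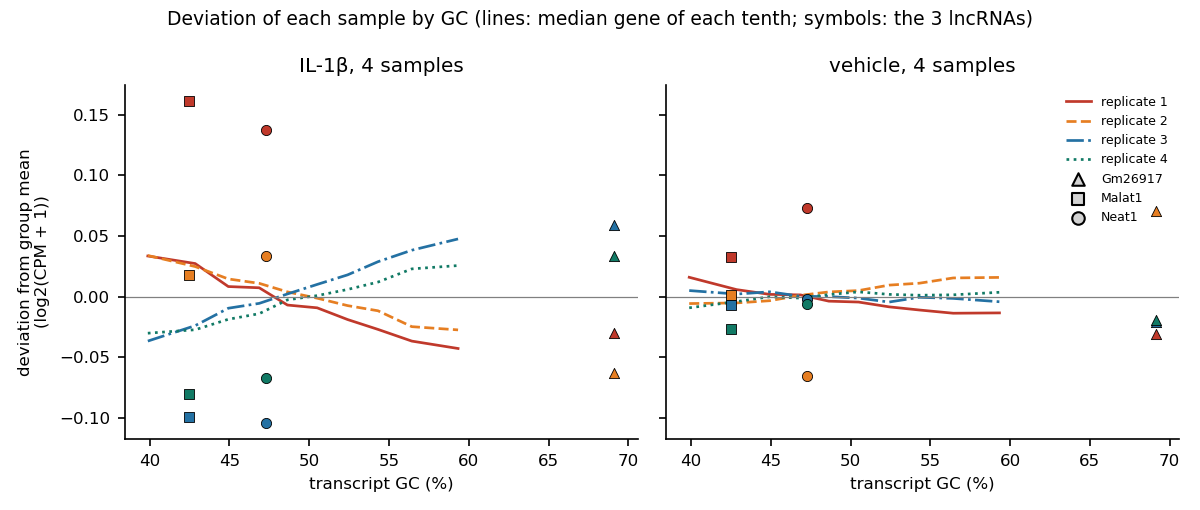
Deviation from the group mean (log2(CPM + 1), y axis) against transcript GC (%, x axis) in the IL-1β-treated samples on the left and the vehicle-treated samples on the right, with lines for the median gene of each of 10 GC classes and symbols for Gm26917, Malat1 and Neat1, coloured by replicate. With IL-1β the lines of replicates 1 and 2 slope down and those of replicates 3 and 4 slope up, while with vehicle all medians stay within 0.016 of 0.

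The genes whose deviations were most like those of each lncRNA were named by the same measure among the 6739 genes. The highest of so many r over 8 samples are picked for being high, so they carry no test. For Malat1 they were Sf3b1, a core splicing factor (r = 0.97), Vps4b, Gm26584, Gm49336 and Kpna1 (r = 0.96 to 0.95). For Neat1 they were Top2b, which encodes topoisomerase IIβ (r = 0.96), Zbtb37, Sec63, Plcb1 and Ago3 (r = 0.96 to 0.95). For Gm26917 they were Npepl1 (r = 0.98), the AP-1 subunit gene Junb, Faap20, Tomm40 and Chchd5 (r = 0.96 to 0.95). The 100 genes most like Malat1 had a median GC of 43.4% and a median length of 8103 bases, those most like Neat1 42.9% and 8863 bases, and those most like Gm26917 54.3% and 3287 bases, beside 49.6% and 5054 bases over all 6739 genes.

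Genes of RNA polymerase I and early ribosome assembly, the machinery of the ribosomal precursor, were lower more often than higher. Of 32 genes tested, 13 fell, 3 rose and 16 did not pass the test (50.0% changed, beside 40.2% of all genes), and the median log2 fold change was -0.11. The median level of these genes was 77.1 CPM, beside 17.4 CPM over all genes tested. The effect of this level on the share called was not tested. Nop56 and Nop58, core proteins of box C/D small nucleolar ribonucleoproteins, fell from 194 to 156 CPM (log2 fold change -0.32, edgeR's adjusted p = 1.27e-09) and from 163 to 137 CPM (-0.25, adjusted p = 6.38e-07). Rrp1b (-0.36) and Dis3 (-0.29), an RNA exosome nuclease, fell as well. Ttf1, the termination factor of RNA polymerase I, rose from 18.4 to 22.7 CPM (0.31, adjusted p = 0.000146), and Exosc10 (0.12) and Taf1d (0.10) also rose. Without vehicle replicate 1, 1 gene of this list rose and 14 fell, and Exosc10 was also lost without IL-1β replicate 2. Ncl, which encodes nucleolin, fell by 0.12 on the log2 scale, while Npm1 (-0.01, adjusted p = 0.841) and Utp20 (-0.06, adjusted p = 0.172) did not pass.

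Of 32 listed paraspeckle protein symbols, 30 were in the table and 29 were tested. The absent symbols, Brg1 and Cpsf5, are other names of Smarca4 and Nudt21, which were listed and tested. Of the tested genes, 13 fell, 2 rose and 14 did not pass (51.7% changed, beside 40.2% of all genes). Their median log2 fold change was -0.11, and their median level was 93.3 CPM, beside 17.4 CPM over all genes tested. Hnrnph3 (42.5 to 29.1 CPM, log2 fold change -0.55, edgeR's adjusted p = 1.2e-08) and Hnrnph1 (175 to 131 CPM, -0.42, adjusted p = 9.52e-12), genes of the hnRNP H family of RNA-binding proteins, fell with Fign (-0.55) and Fam98a (-0.32). Fam53b (0.33) and Hnrnpk (0.08) rose, and of these Hnrnpk was lost without each of IL-1β replicates 2 and 3 and vehicle replicates 1, 3 and 4. Among the most abundant genes, Hnrnpa1 (-0.26) fell, and Sfpq, whose protein is essential for paraspeckles, had 434 CPM in vehicle-treated cells and 419 in IL-1β-treated cells (-0.05, adjusted p = 0.162).

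Of the 29 nuclear speckle protein genes, 12 fell, 1 rose and 16 did not pass (44.8% changed, beside 40.2% of all genes). Their median log2 fold change was -0.08, and their median level was 110.6 CPM, beside 17.4 CPM over all genes tested. The splicing regulator genes Srsf10 (119 to 93.7 CPM, log2 fold change -0.35, edgeR's adjusted p = 2.59e-09), Tra2b (-0.24) and Srsf7 (-0.24) fell, as did U2af2 (-0.21), whose protein recognizes 3′ splice sites. The 1 gene that rose, Acin1 (0.07, adjusted p = 0.0497), did not pass under 12 of 17 other analyses. Son (-0.06, adjusted p = 0.177) and Srrm2 (-0.03, adjusted p = 0.412), which encode the core of the speckle, and the spliceosome gene Prpf8 (-0.07, adjusted p = 0.0626) did not pass, though Prpf8 did in 5 of 17 other analyses, DESeq2 among them.

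Of 14 genes for maturation of the 3′ ends of Malat1 and Neat1, 12 were tested, with a median log2 fold change of -0.11. Among them 4 fell, 0 rose and 8 did not pass (33.3% changed, beside 40.2% of all genes). The 4 were Elac2, the RNase Z that cuts behind the tRNA-like RNA (51.4 to 40.8 CPM, log2 fold change -0.34, edgeR's adjusted p = 2.28e-06), and the RNase P subunit genes Pop7 (-0.31), Pop5 (-0.30) and Pop4 (-0.17, adjusted p = 0.0429). Pop4 was lost in 8 of 17 other analyses. Mettl16, whose protein binds the triple helix of Malat1, had 48.6 CPM in vehicle-treated cells and 45.5 in IL-1β-treated cells (-0.10, adjusted p = 0.0785).

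**Figure D5:**
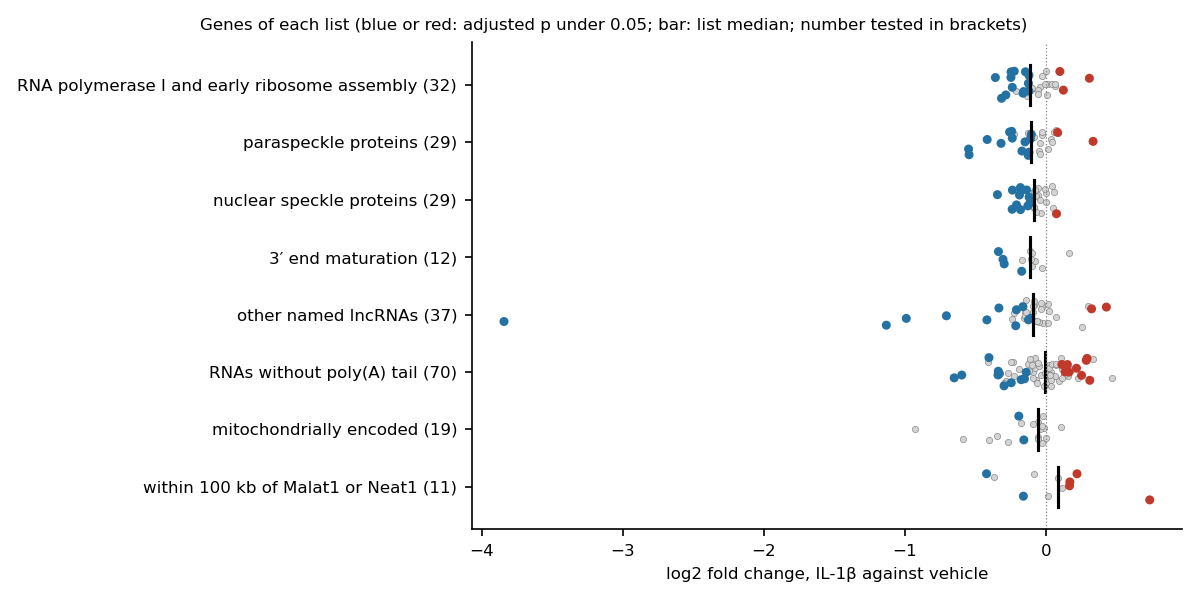
Log2 fold change of IL-1β against vehicle (x axis) for each tested gene of 8 gene lists (y axis, number tested in brackets), with genes of an adjusted p under 0.05 in blue where lower and red where higher, and a bar at each list's median. The medians lie between -0.11 and 0.08, and H19 is the point at -3.84.

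Some other lncRNAs changed far more than the 3 abundant ones. Of 55 other lncRNAs listed by name, 46 were in the table and 37 were tested, with a median log2 fold change of -0.09. Among the tested ones 11 fell, 2 rose and 24 did not pass (35.1% changed, beside 40.2% of all genes). H19, an imprinted lncRNA, was at 34.1, 43.5, 46.5 and 47.2 CPM with IL-1β against 598, 614, 615 and 646 CPM with vehicle (log2 fold change -3.84, SE 0.057, edgeR's adjusted p = 1.18e-28). The groups lay far apart. From the same list, 3 lncRNAs of the imprinted Dlk1-Dio3 region fell as well, namely Meg3 from 111 to 50.8 CPM (-1.13), Rian from 78.6 to 39.3 CPM (-0.99) and Mirg from 17.6 to 10.8 CPM (-0.71). Trp53cor1 (0.43) and Lncpint (0.32), both lncRNAs of the p53 response, rose. Xist (-0.04, adjusted p = 0.49) and Gas5 (-0.05, adjusted p = 0.283), the most abundant besides H19, did not pass.

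Over all lncRNA biotypes, 9563 genes were in the table and 891 were tested. Of the tested genes, 99 rose and 100 fell (22.3% changed, beside 40.2% of all genes). There were 47 DEGs among these 891 genes, beside 751 among all 14404 genes tested (5.21%). The tested lncRNA genes were mostly low, at a median of 2.08 CPM beside 17.4 CPM over all genes tested. Per kb, the highest were Gm26917, Malat1, Gm10076 (932 CPM per kb), 2410006H16Rik (478) and H19 (134). Gm10076 (log2 fold change -0.02, edgeR's adjusted p = 0.764) and 2410006H16Rik (-0.07, adjusted p = 0.177) did not pass the test. Among DEGs with groups apart and a mean of at least 5 CPM in the higher group, G930009F23Rik (2.21), Gm13293 (1.58), Gm14066 (1.39), Gm26584 (1.27) and 1700001L05Rik (1.17) rose most, and after H19, Gm26633 (-2.47), C430049B03Rik (-2.13), Gm4524 (-1.68) and Gm12349 (-1.19) fell most. The limit of 5 CPM was met only in the higher group by G930009F23Rik, Gm13293, 1700001L05Rik, C430049B03Rik and Gm12349. Gm4524 shares 49.0% of its exon bases with other genes and Gm26584 19.7%.

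RNAs that, like Malat1, carry no poly(A) tail gave a further comparison. Of 223 histone, small nucleolar and other such genes, 70 were tested, with a median log2 fold change of -0.01. Among the tested ones 9 rose, 11 fell and 50 did not pass (28.6% changed, beside 40.2% of all genes). Without IL-1β replicate 1, and without vehicle replicate 2, 10 rose and 7 fell. Rn7sk was at 8613, 8790, 9335 and 8389 CPM in IL-1β replicates 1 to 4 and 8347, 9464, 9101 and 9684 CPM in vehicle replicates 1 to 4, and the groups overlapped (-0.06, edgeR's adjusted p = 0.161). Rn7sk passed in 3 of 17 other analyses. The histone genes Hist1h2ad (-0.65), Hist1h2bf (-0.60), Hist2h3c2 (-0.41) and Hist1h3b (-0.34) fell, and Hist1h4m (0.31), Hist1h4h (0.29), Hist1h4n (0.28) and Hist1h4a (0.25) rose. These belong to families of near-identical copies among which reads can be split, so their values are uncertain. Of the changed ones, Hist1h2ad and Hist2h3c2 were each lost in 6 of 17 other analyses, DESeq2 among them, and Hist1h4n without IL-1β replicate 4. Scarna2, a small Cajal body RNA, rose from 589 to 636 CPM (0.11, adjusted p = 0.00925) with overlapping groups, and this call was lost with the GC offset and without vehicle replicate 3 (adjusted p up to 0.0723). Hist1h4d (-0.02, adjusted p = 0.799) did not pass.

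Of the 37 mitochondrially encoded genes, 19 were tested and 2 fell, mt-Co1 (2490 to 2177 CPM, log2 fold change -0.19, edgeR's adjusted p = 2e-05) and mt-Tp (-0.16, adjusted p = 0.0117). Thus 10.5% changed, beside 40.2% of all genes. Without IL-1β replicate 4, 5 genes fell but mt-Tp was lost (adjusted p = 0.0655). The number that fell was 4 without vehicle replicate 1, without vehicle replicate 4 and with 1 factor of unwanted variation. With no filter, 6 of 32 fell and 1 rose. The abundant mt-Cytb (-0.04, adjusted p = 0.275) and mt-Nd1 (-0.03, adjusted p = 0.468) did not pass.

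The genes around Malat1 and Neat1 moved in both directions. Of 22 other genes within 100 kb, 11 were tested, with a median log2 fold change of 0.08. Among the tested ones 4 rose, 2 fell and 5 did not pass (54.5% changed, beside 40.2% of all genes). Ltbp3, which encodes a latent TGF-β binding protein, fell from 673 to 502 CPM (-0.42, edgeR's adjusted p = 1.78e-12), and Dpf2 fell by 0.16 on the log2 scale. Cdc42ep2 (0.73), Map3k11 (0.22) and Frmd8 (0.17), the gene 4224 bases from Neat1, were among those that rose. Ehbp1l1 had 203 CPM in IL-1β-treated cells and 201 in vehicle-treated cells (0.01, adjusted p = 0.75).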

How the data were processed

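The authors deposited 1 table of integer counts, made from trimmed reads (cutadapt) aligned to mm10 with STAR and counted with featureCounts. The submitters' processing notes name STAR 2.4.2a, and the library kit, its strand setting and whether the counts precede the RUVseq correction named in the methods are not given in the sources used here. A gene length column (other unit: bases), deposited in the same table, was used for values per kb. Of the 54658 symbols, 53994 (98.8%) matched 1 gene of GENCODE vM21 (GRCm38), and 98.5% had the listed length.

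Samples were grouped by their labels. Counts were TMM-normalized and tested with edgeR 4.0.16 (limma 3.58.1, R 4.3.3), quasi-likelihood, with treatment as the only term, over 14404 genes (prior degrees of freedom 20.9, common biological variation 4.11%). The code was tested on simulated data. Depth was 10992355 to 17456063 counts per sample, at which 3 counts are 0.172 to 0.273 CPM. Alternatives were DESeq2 1.42.0, its size factors, total library size with and without the ribosomal locus, other filters and a replicate block. Further ones were 1 factor of unwanted variation, a GC offset in 20 classes, and each sample left out. The factor was computed from deviations from the group means, so it could not take up a difference between treatments. Since no annotated exon overlaps Gm26917, the ribosomal locus was taken as Gm26917, CT010467.1, Gm42418 and AY036118. Other values and figures were made with Python 3.11.15, pandas 2.3.3, scipy 1.17.1, Biopython 1.88 and matplotlib 3.10.9.

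The lncRNAs, lists and tests were chosen with earlier results of these data known. Named genes were, in each list, up to 4 changed genes with the largest rise and fall and the 3 most abundant; for each lncRNA, the 5 genes most alike in deviation; and among lncRNA biotypes, the 5 highest per kb and the 5 largest rises and falls among DEGs with groups apart and at least 5 CPM. CT010467.1, Rn7sk and the mitochondrial rRNAs were set beside Gm26917 after their values were seen. Ranks and shares carry no test. Some genes that these rules select are not reported here by name.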

Additional observations from a re-analysis of the deposited data

Results flagged for a closer look

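Dixon's ratio was computed for the highest and lowest sample within each of 158 groups of 4 values, of which chance alone flags about 1 in 20, and 10 stood apart. Gm26917 in vehicle replicate 2 was at 140661 CPM, above the 131127 to 132153 CPM of the other vehicle-treated samples. In IL-1β-treated samples, Nop58 was at 129 CPM in replicate 3, Exosc10 at 90.0 CPM in replicate 2, Hnrnpk at 345 CPM in replicate 4, Hist1h3b at 7.36 CPM in replicate 2, G930009F23Rik at 6.24 CPM in replicate 3 and C430049B03Rik at 1.62 CPM in replicate 1. In vehicle replicate 4, Hist1h3b was at 11.6 CPM, Ltbp3 at 665 CPM and Gm26584 at 12.8 CPM.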

How the results depend on the processing

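Malat1 and Gm26917 kept their direction and stayed past the threshold under each alternative, and none of the 3 lncRNAs became a DEG. Leaving out 1 sample gave log2 fold changes of -0.36 to -0.27 for Malat1, 0.07 to 0.11 for Gm26917 and -0.116 to -0.034 for Neat1, and 5179 to 5509 changed genes. Neat1 passed the threshold with 1 factor of unwanted variation (-0.073, adjusted p = 0.0429) and without IL-1β replicate 1; its adjusted p under the other alternatives was 0.08 to 0.544, and the cause was not tested. DESeq2 called 4937 genes changed and gave larger SEs than edgeR, 0.062 for Malat1, 0.031 for Gm26917 and 0.061 for Neat1. With the ribosomal locus left out of the total, the mean share was 1.02% for Malat1 (0.880% with it) and 0.131% for Neat1 (0.112%), which follows from the smaller total. With total library sizes, 3 of the 5 genes most like Malat1, 2 of those most like Neat1 and 4 of those most like Gm26917 stayed.

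Same-numbered samples of the groups did not deviate together (r of their deviations 0.042, -0.051, -0.012 and -0.07), so the numbers were not read as pairs. With the replicate block, log2 fold changes were -0.30 for Malat1, 0.09 for Gm26917 and -0.07 for Neat1 (adjusted p = 0.0802), and 5643 genes changed.

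Of the 74 other named genes, 58 had changed, and 10 of these missed the threshold under at least 1 alternative. None of them turned in direction. Of the named genes that had not changed, Prpf8 passed in 5 alternatives (lowest adjusted p = 0.015), Rn7sk in 3 (0.0042), and Mettl16 and 2410006H16Rik in 1 each. Other genes that had not passed turned as follows. With the GC offset, Npm1 was at 0.029, mt-Cytb at 0.0061, mt-Nd1 at 0.018 and Ehbp1l1 at -0.011. With 1 sample left out, Npm1 ranged from -0.023 to 0.0083, Xist from -0.071 to 0.0062, Hist1h4d from -0.062 to 0.020 and Gm10076 from -0.058 to 0.011. With 4 samples per group, depth limited the shares of the 3 lncRNAs less than the spread between samples did.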
